A study of Mus musculus with 12 samples.

Results

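Mesenchymal stem cells (MSCs) are the stromal progenitors of bone marrow that give rise to bone, cartilage and fat cells, and no single surface protein defines them. In culture they are recognised by a set of proteins on the cell membrane together with the absence of CD45, the tyrosine phosphatase of blood cells. Several proteins of the set are shared with other cells, since CD44 and Sca-1 are also found on blood cells and VCAM1 on macrophages and endothelium, and so it is the set that is read and not 1 gene.

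The transcripts of 10 such genes were examined: Thy1 (CD90), Eng (CD105), Nt5e (CD73), Ly6a (Sca-1), Cd44, Vcam1 (CD106), Pdgfra, Pdgfrb, Lepr and Ptprc (CD45). They were chosen by name, as the rows whose Ensembl identifiers map to these symbols, and all 10 were found among the 55487 genes counted in each of 2 RNA-seq experiments. The first experiment compared bone marrow-derived macrophages (BMMs) of C57BL/6 mice after a sham operation (3 libraries) or after ovariectomy (OVX, 3 libraries), which removes the ovaries and models postmenopausal bone loss. The second compared C57BL/6 MSCs cultured alone (MSC, 2 libraries), with RAW cells (RAW264.7 in the methods), a mouse macrophage line (MSC+RAW-TW, 2 libraries), and with RAW cells stimulated by lipopolysaccharide, a bacterial endotoxin (MSC+RAW-LPS-TW, 2 libraries). TW stands for the transwell membrane that lay between the cells in the study's scheme of these groups. The labels give an age of 8 weeks and the limbs as the source for every sample, and name no transgene or deletion. According to the methods, the MSCs were adherent marrow cells purified by passage, and no sort before RNA extraction is described. The methods also describe flow cytometry of MSCs for a panel of surface proteins, without tying it to these libraries. The study's captions speak of independent experiments for its error bars and count more replicates in the MSC experiment than the 2 libraries per group analysed here. Neither they nor the labels tie each library to an animal or a culture of its own, so p-values measure only the spread between these libraries, which may be technical.

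The libraries held between 17012923 and 45367105 counts. Sham replicates 2 and 3 were closer to each other than other libraries of 1 group, and so were both MSC+RAW-TW libraries. A chi-square of their counts was 2.58 to 3.35 times what the sampling of reads gives, at rare and abundant genes alike, with a ratio of abundant to rare of 1.08 and 1.09. In the other pairs this ratio was 4.69 to 26.6. Each of the 2 close pairs was counted as 1 sample, which leaves n = 2 for sham and n = 1, with no SD, for MSC+RAW-TW. The lone MSC+RAW-TW sample was assumed in the fits to vary like the other groups. The libraries also differed in how their counts moved with the GC content of genes. Across genes, which are not independent replicates, Spearman's rho between GC content and a library's deviation from its experiment ran from -0.581 to -0.335 in OVX and from 0.210 to 0.492 in sham. It was 0.371 and 0.376 in MSC+RAW-TW and lay between -0.303 and -0.132 in MSC and MSC+RAW-LPS-TW. GC content therefore moved with the group in every contrast that involves sham or MSC+RAW-TW. The exons of Ptprc (41.2% GC) and Vcam1 (43.2%) were the most AT-rich of the 10 genes, and those of Eng (55.5%) and Thy1 (55.5%) the most GC-rich. Each fold change was also computed with the GC and length trends of every library removed. For the 10 genes that value is given where it changes a call. For the lists, changed calls or counts are given only for the contrasts that are described. The MSC+RAW-TW libraries stood apart in other measures as well. They held 19657 and 19751 genes above 0, against 22068 to 24876 in the other 4 libraries of that experiment, 1.91% and 1.93% of ribosomal RNA counts against 4.14% to 8.03%, and 0.1601% and 0.1654% of mitochondrial counts against 0.533% to 0.746%. The part of these differences in the calls that involve MSC+RAW-TW was not tested.

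Levels are CPM, counts per 1000000 counts of the library, scaled by the trimmed mean of M values (TMM) of each experiment. For a call, a gene had to differ 2-fold or more, and its p from edgeR's two-sided quasi-likelihood test, adjusted over all genes by Benjamini and Hochberg's method, had to be 0.05 or less. Values after ± are SD for levels and SE for log2 fold changes. In bulk RNA, fewer cells of a type and less RNA per cell cannot be told apart.

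All 6 macrophage libraries and all 6 libraries of the MSC experiment carried transcripts of macrophages and of stromal cells together. Of 20 macrophage markers, 19 reached 1 CPM in sham and in OVX and 20 in each MSC group. Their summed level was 32885 and 33292 CPM in the MSC libraries, 42858 and 43447 CPM in MSC+RAW-TW, and 17270 and 18469 CPM in MSC+RAW-LPS-TW, against 47419 to 70175 CPM in the macrophages. Lyz2, the lysozyme of myeloid cells, had a mean of 21646 CPM in MSC alone, where no macrophages were added, and 49936 CPM in sham BMMs. Of 16 stromal markers, 15 or 16 reached 1 CPM in every group, and their summed level was higher in the macrophage libraries (14105 to 16679 CPM) than in the MSC experiment (5811 to 8701 CPM). Col1a1, the main chain of collagen in bone, had a mean of 1991 CPM in sham and 456 CPM in MSC alone. The sum of the macrophage markers, of which Lyz2 is the largest part, was thus higher in every macrophage library than in any library of the MSC experiment. Their median level within a library overlapped, at 685 to 745 CPM in sham, 349 to 393 CPM in OVX, 588 to 606 CPM in MSC, 631 to 638 CPM in MSC+RAW-TW and 327 to 424 CPM in MSC+RAW-LPS-TW. The stromal markers were higher in the macrophage libraries by sum and by median (333 to 408 CPM against 199 to 302 CPM). These are transcripts, surface protein was not measured in these libraries, and the groups are called below by their labels. Lists for T and NK cells (at most 8.43 CPM in sum), erythroid cells (at most 4.97 CPM) and endothelium (at most 50.6 CPM) were low in all 12 libraries. B cell genes summed to 36.3 to 49.6 CPM over all libraries, and in the MSC experiment only Ebf1 of the 7 reached 10 CPM. Osteoblast genes summed to 24.5 to 28.1 CPM in sham, 42.5 to 45.6 CPM in OVX and 40.7 to 54.0 CPM in the MSC experiment. Dendritic cell genes summed to 57.9 to 91.5 CPM in the MSC experiment and 8.67 to 12.9 CPM in the macrophages, and this sum was carried by 1 of the 8 genes, Itgax (CD11c), at 54.1 to 87.7 CPM in the MSC experiment, while 6 of the 8 were at 0 in both MSC+RAW-TW libraries. Genes of blood stem and progenitor cells summed to 40.6 to 80.5 CPM in the MSC experiment and 66.9 to 165 CPM in the macrophages. The list of 10 neutrophil genes was not low throughout. It summed to 823 to 955 CPM in sham and 1212 to 1344 CPM in OVX, where none of the 10 was called. In the MSC experiment it summed to 18.1 and 23.5 CPM in MSC, 38.5 and 41.8 CPM in MSC+RAW-TW, and 402 and 583 CPM in MSC+RAW-LPS-TW.

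**Figure D1:**
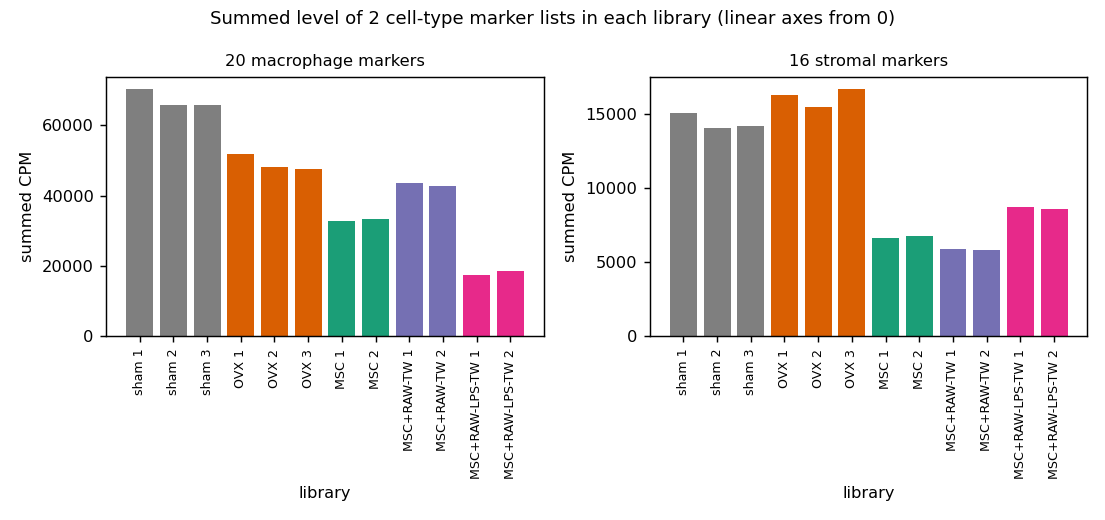
Summed CPM of 20 macrophage markers (left) and 16 stromal markers (right), 1 bar per library, with bars coloured by group and linear axes from 0. The macrophage markers reached 32885 CPM in MSC replicate 1, and the stromal markers were highest in the OVX and sham macrophage libraries.

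To show the sequence context of genes called in the MSC experiment (Eng in MSC+RAW-TW over MSC, Cd44 and Pdgfra between the co-cultures), the 250 bases before their start are given (RefSeq, GRCm38.p6). These are the windows with no overlap with the gene's annotated exons or introns. They were searched on both strands for the NF-kB consensus, for AP-1 (TGANTCA) and for PU.1 (GAGGAAGT), motifs of factors active in inflamed and myeloid cells. Capitals mark a match.
Eng, chr2:32646345-32646594, plus strand: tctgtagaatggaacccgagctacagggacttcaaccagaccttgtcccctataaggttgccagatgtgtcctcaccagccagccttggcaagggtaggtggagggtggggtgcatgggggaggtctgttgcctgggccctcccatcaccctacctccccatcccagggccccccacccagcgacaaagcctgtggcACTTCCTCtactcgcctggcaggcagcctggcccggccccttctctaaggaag
Cd44, chr2:102901666-102901915, minus strand: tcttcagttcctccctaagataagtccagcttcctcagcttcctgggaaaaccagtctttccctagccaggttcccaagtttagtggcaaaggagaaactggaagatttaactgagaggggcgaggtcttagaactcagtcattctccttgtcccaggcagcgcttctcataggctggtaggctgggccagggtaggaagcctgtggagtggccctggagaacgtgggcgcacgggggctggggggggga
Pdgfra, chr5:75152001-75152250, plus strand: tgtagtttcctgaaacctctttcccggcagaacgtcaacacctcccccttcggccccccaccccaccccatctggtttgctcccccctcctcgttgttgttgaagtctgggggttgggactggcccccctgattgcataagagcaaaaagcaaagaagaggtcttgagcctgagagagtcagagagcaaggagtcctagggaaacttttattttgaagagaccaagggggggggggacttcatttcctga

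The Eng window held 1 PU.1 match, on the opposite strand to the gene, whose last base lay at position -46 from the start. The Cd44 and Pdgfra windows held none of the 3 motifs. Among 32851 such windows of all genes, 2.44% held the PU.1 motif, 6.75% AP-1 and 3.90% the NF-kB consensus. A match is a description of the letters only. The windows of Lepr, Nt5e and Ptprc overlapped their own genes in the GENCODE annotation and are not printed. Promoters of Thy1, Vcam1, Ly6a and Pdgfrb were not analysed here.

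Compared per kilobase of exon, the 10 genes spanned a wide range within each group. In MSC alone, Ly6a was highest at 178 CPM per kb, followed by Pdgfrb (29.0), Cd44 (25.1), Eng (15.5), Ptprc (9.24), Pdgfra (7.71), Vcam1 (3.44), Nt5e (0.858), Lepr (0.270) and Thy1 (0.124). The blood-cell gene Ptprc thus stood above Pdgfra, Vcam1 and Nt5e on this scale. In MSC+RAW-LPS-TW, Cd44 (45.9 CPM per kb) stood above Pdgfrb (30.1), and Nt5e had come to 6.28. In MSC+RAW-TW, Eng (31.8 CPM per kb) was the next below Ly6a (426). In sham BMMs, Thy1 (22.5 CPM per kb) ranked next below Ly6a (296), and in OVX BMMs it was near Cd44 and Pdgfrb, with 19.4, 21.7 and 19.2 CPM per kb.

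**Figure D2:**
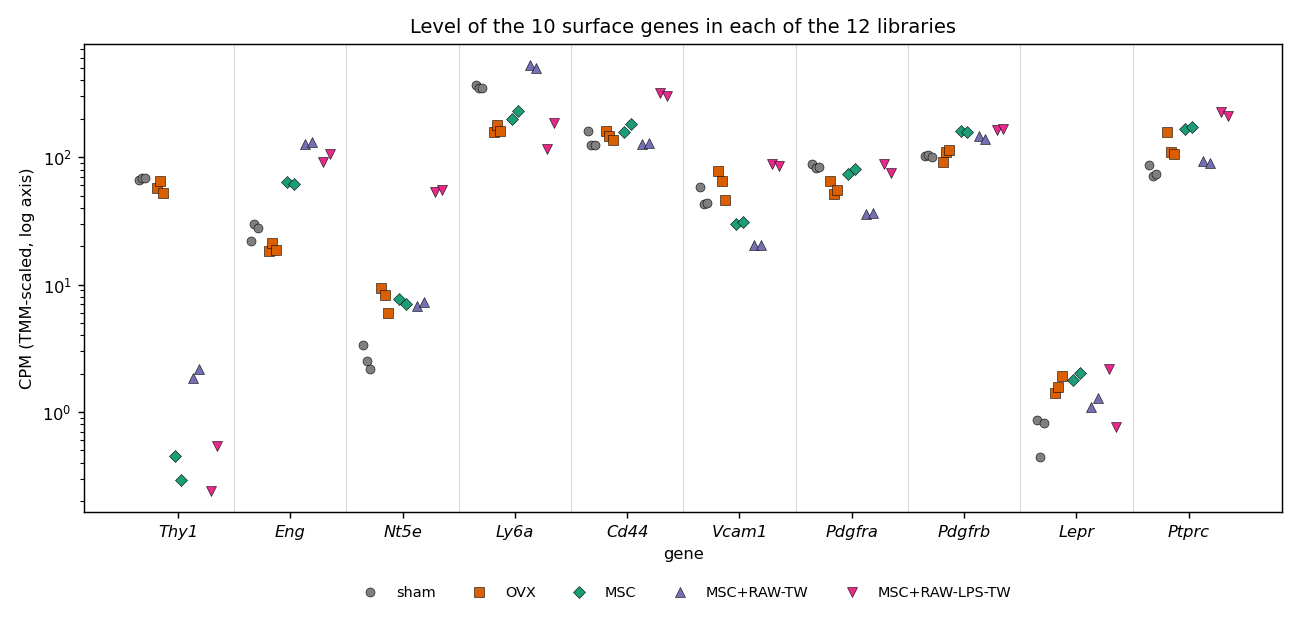
CPM of each of the 10 genes in each of the 12 libraries on a log axis, 1 point per library, with shape and colour for the group. Thy1 lay between 52.6 and 69.2 CPM in the macrophage libraries and between 0.240 and 2.16 CPM in the MSC experiment, and Nt5e in MSC+RAW-LPS-TW (52.9 and 55.1 CPM) stood above every other library.

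Between MSC alone and the macrophages, 7 of the 10 genes had a higher mean in MSC alone and 3 (Thy1, Ly6a and Vcam1) a lower one. The libraries of MSC alone did not overlap with the 6 macrophage libraries for 5 of the 10, where 53.8% of the 13628 genes that averaged 1 CPM or more did not overlap either. Over all 6 libraries of the MSC experiment, 3 of the 10 (Thy1, Eng and Pdgfrb) did not overlap with the macrophages, against 27.7% of genes. The cells came from 2 separately normalized experiments, so cell source and experiment cannot be told apart and no test was made.

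Thy1 encodes CD90, a small membrane-anchored glycoprotein and one of the classic positive MSC markers. It was nearly absent from the cells labelled MSC, with 22 and 10 counts or 0.449 and 0.293 CPM in the 2 libraries of MSC alone. The macrophage libraries held 65.9, 69.2 and 68.8 CPM in sham and 57.1, 65.0 and 52.6 CPM in OVX. The mean was 167-fold higher in the macrophages (61.9 CPM) than in MSC alone (0.371 CPM). Ptprc encodes CD45 and is the negative marker of the set. It gave 167 and 171 CPM in MSC alone, more than in any of the macrophage libraries, which ran from 71.4 to 159 CPM, and its mean was 1.59-fold higher than theirs. The ratio of Ptprc to Thy1 counts within a library, which no scaling between libraries can change, was 1.03 to 2.78 in the macrophages and 41.5 to 947.5 in the MSC experiment. It sets the AT-rich Ptprc against the GC-rich Thy1, so the GC trends of the libraries can change it. Within the macrophages it was 1.03 to 1.32 in sham and 1.68 to 2.78 in OVX. In the MSC experiment it rests on 8 to 75 Thy1 counts. Cd34, a progenitor and endothelial antigen that the study's panel also uses as a negative marker, was low in MSC alone (5.41 CPM) and in sham BMMs (9.88 CPM).

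Eng encodes endoglin, a co-receptor for transforming growth factor-β and bone morphogenetic proteins. It was 2.89-fold higher in MSC alone (64.0 and 61.6 CPM) than in the macrophages (18.4 to 30.0 CPM), with no overlap. Pdgfrb, the β receptor for platelet-derived growth factor on pericytes and stromal cells, was 1.53-fold higher in MSC alone, at 161 and 157 CPM against 91.0 to 114 CPM. Vcam1, an adhesion molecule that binds the integrin VLA-4 of blood cells, was lower in MSC alone (30.0 and 31.1 CPM) than in every macrophage library (43.2 to 78.6 CPM). Ly6a, Cd44, Pdgfra, Nt5e and Lepr overlapped, and their ratios of means, MSC alone over macrophages, ran from 0.882 (Ly6a) to 1.49 (Lepr).

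Among the 4 contrasts, the co-culture with LPS-stimulated RAW cells against the one with untreated RAW cells called the most of these genes. It also called the largest share of all genes. In BMMs, OVX against sham called 2 of the 10 (Nt5e higher, Ly6a lower), where 8.46% of the 16768 genes tested were called. MSC+RAW-LPS-TW against MSC called 2 (Nt5e and Vcam1, both higher), where 10.9% of 20499 genes were called. MSC+RAW-TW against MSC called 4 (Thy1, Eng and Ly6a higher, Pdgfra lower), against 16.4% of genes. The contrast between the co-cultures, LPS-stimulated over untreated RAW cells, called 7 (Nt5e, Cd44, Vcam1, Pdgfra and Ptprc higher, Thy1 and Ly6a lower), against 27.4% of genes. By the adjusted p with no fold limit, 13.1%, 20.9%, 28.6% and 40.2% of genes passed in these 4 contrasts, in the same order. With the GC and length trends removed, Nt5e and Ly6a were again called in BMMs, where 3.44% of genes were, and Nt5e and Vcam1 in MSC+RAW-LPS-TW against MSC, where 10.7% were. MSC+RAW-TW against MSC then called 1 (Ly6a), where 10.5% of genes were called, and the co-culture contrast 4 (Nt5e, Ly6a, Vcam1 and Pdgfra), where 23.0% were. The 3 contrasts of the MSC experiment share libraries and are not independent of each other. The median log2 fold change of all genes was -0.13 in MSC+RAW-TW against MSC and 0.14 between the co-cultures, and came to 0 and 0.01 with the trends removed. Relative to these medians, Pdgfra had log2 differences of -0.93 and 1.01, and Ptprc of -0.72 and 1.08.

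**Figure D3:**
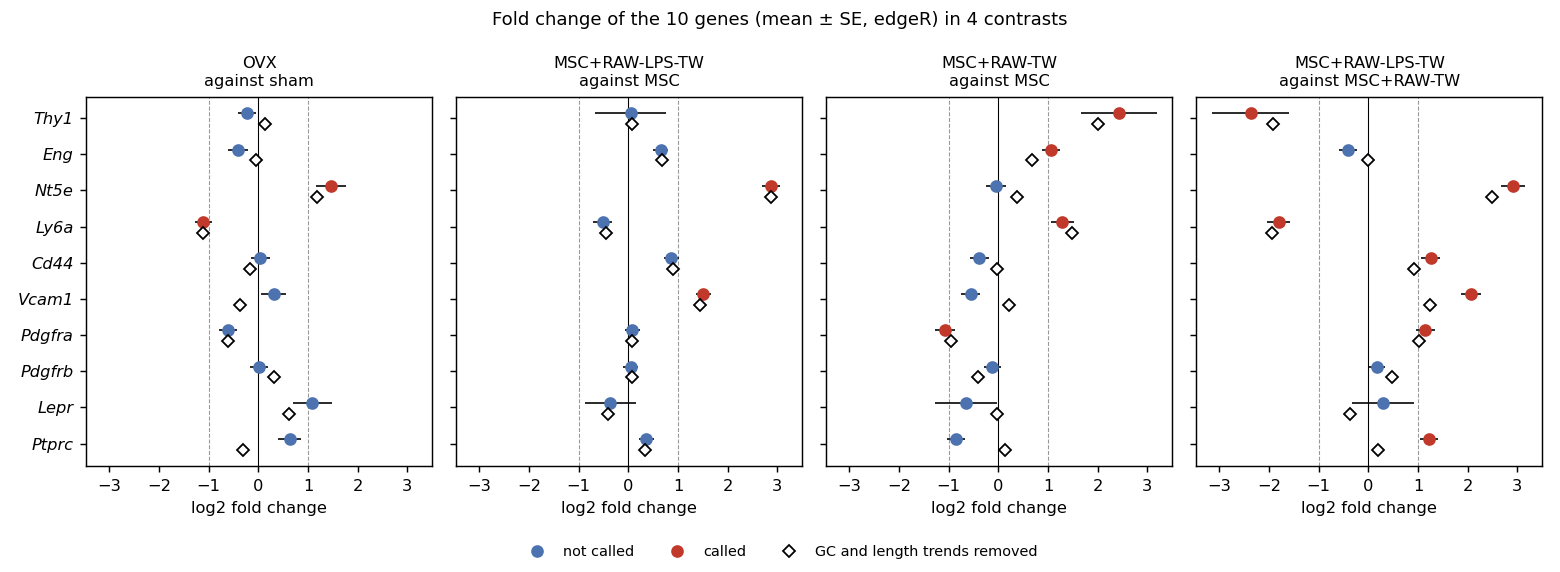
Log2 fold change ± SE (edgeR) of the 10 genes in the 4 contrasts, with red circles for called and blue circles for not called genes, open diamonds for values with GC and length trends removed, and dashed lines at a fold of 2. Nt5e and Vcam1 lie to the right of the dashed line in both contrasts of MSC+RAW-LPS-TW, while Ptprc moves from 1.22 to 0.20 in the contrast with MSC+RAW-TW once the trends are removed.

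Nt5e encodes CD73, the enzyme on the cell surface that turns AMP into adenosine. It had the largest change among the 10 genes. Levels were 7.72 and 7.04 CPM in MSC, 6.77 and 7.30 CPM in MSC+RAW-TW, and 52.9 and 55.1 CPM in MSC+RAW-LPS-TW. The group with LPS lay far above the others with no overlap, by a log2 fold change of 2.87 ± 0.18 over MSC (adjusted p = 9.64e-09) and 2.91 ± 0.24 over MSC+RAW-TW (adjusted p = 2.38e-07). MSC+RAW-TW did not differ from MSC beyond its error (-0.05 ± 0.21, adjusted p = 0.893). In BMMs, Nt5e was low, with 3.33, 2.53 and 2.18 CPM in sham and 9.44, 8.21 and 5.95 CPM in OVX. It rose with OVX by 1.46 ± 0.31 (adjusted p = 0.0211), with no overlap between the groups. The call was lost without OVX replicate 1 (1.31, adjusted p = 0.0741) or without OVX replicate 2 (1.44, adjusted p = 0.0925).

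Of 9 other genes of the pathway that breaks down ATP and senses adenosine, 3 rose and 2 fell in MSC+RAW-LPS-TW against MSC, with a list median of -0.31 against -0.01 for all genes. Adora2a, an adenosine receptor, rose from 0.538 to 14.7 CPM (4.73 ± 0.33, adjusted p = 3.67e-08). Adora2b, a related receptor, rose from 9.77 to 37.9 CPM (1.96 ± 0.24, adjusted p = 1.84e-05), and Adora3 by 1.25. Entpd1 (CD39), which supplies AMP to CD73, fell from 28.2 to 2.98 CPM (-3.24 ± 0.20, adjusted p = 6.50e-09). Ada, which removes adenosine, fell by 1.41 on the log2 scale. The same contrast against MSC+RAW-TW had 2 higher (Adora2a and Adora2b) and 3 lower (Entpd1, Ada and the transporter Slc29a2) of 9. MSC+RAW-TW against MSC had 2 higher, Adora3 and Slc29a2, and none lower. With the trends removed, Slc29a2 was no longer called there (0.59, adjusted p = 0.295) and Adora2a was called lower (-1.73, adjusted p = 0.0184). In OVX against sham, Entpd1 alone of 8 tested was called, higher by 1.04. With the trends removed it was not called (0.90), and Adk, which turns adenosine into AMP, was called lower (-1.15).

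Vcam1 rose in MSC+RAW-LPS-TW. Its levels were 30.0 and 31.1 CPM in MSC, 20.4 and 20.3 CPM in MSC+RAW-TW, and 88.7 and 85.6 CPM in MSC+RAW-LPS-TW, so that the 3 groups did not overlap. The log2 fold change was 1.51 ± 0.15 over MSC (adjusted p = 2.29e-06) and 2.07 ± 0.20 over MSC+RAW-TW (adjusted p = 1.71e-06), the latter 1.23 with the trends removed. Its level in MSC+RAW-TW, below that in MSC (-0.56 ± 0.19, adjusted p = 0.0375), missed the fold limit and turned to 0.21 with the trends removed. In BMMs, Vcam1 gave 58.0, 43.2 and 43.8 CPM in sham and 78.6, 65.2 and 46.5 CPM in OVX. The groups overlapped, and the difference was 0.31 ± 0.26 (adjusted p = 0.454), or -0.36 with the trends removed.

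Of 7 tested partners of VCAM1 and other adhesion molecules, 2 rose and none fell in MSC+RAW-LPS-TW against MSC. Itgal, the α chain of the leukocyte integrin LFA-1, rose from 73.1 to 462 CPM (2.66 ± 0.16, adjusted p = 6.52e-09), and Icam1, a ligand of LFA-1, from 30.3 to 64.1 CPM (1.08 ± 0.15, adjusted p = 7.82e-05). Itga4, the α chain of VLA-4 and so of the receptor for VCAM1, had 67.9 CPM in MSC and 68.0 CPM in MSC+RAW-LPS-TW. Itgb2, the β chain of LFA-1, had 352 and 454 CPM and was not called. Against MSC+RAW-TW, Itgal and Icam1 rose and Itgb7 fell, the last not with the trends removed, and in MSC+RAW-TW against MSC none of the 7 was called. In BMMs the same 2 genes fell with OVX, Itgal by 2.13 and Icam1 by 1.43 on the log2 scale, as did Itgb2 by 1.04, the last not called with the trends removed.

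Cd44 encodes the main receptor for hyaluronan, a sugar polymer of the matrix. It gave 157 and 182 CPM in MSC, 127 and 128 CPM in MSC+RAW-TW, and 318 and 303 CPM in MSC+RAW-LPS-TW, with no overlap between any of the groups. It was called over MSC+RAW-TW (1.25 ± 0.20, adjusted p = 0.000129), though not with the trends removed (0.91, adjusted p = 0.00142, below the fold limit). Over MSC it passed the adjusted p but not the fold limit (0.87 ± 0.15, adjusted p = 0.000542). In BMMs, the levels of 160.1, 124 and 124 CPM in sham and 159, 147 and 135 CPM in OVX overlapped (0.04 ± 0.19, adjusted p = 0.913).

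Among 12 genes of hyaluronan synthesis, breakdown and binding, 4 rose and 1 fell in MSC+RAW-LPS-TW against MSC, with a median of 0.69 against -0.01 for all genes. Has2, the main hyaluronan synthase of stromal cells, rose from 17.5 to 114 CPM (2.69 ± 0.18, adjusted p = 2.53e-08). Cemip, which takes part in hyaluronan breakdown, rose from 31.6 to 201 CPM (2.66 ± 0.16, adjusted p = 6.27e-09). Tnfaip6 (2.19) and Has1 (1.14) rose as well, and the hyaluronidase Hyal1 fell by 1.17 on the log2 scale. Spp1 (osteopontin), which also binds CD44, passed the adjusted p at 0.95, below the fold limit, and was called with the trends removed (1.01). The contrast between the co-cultures had 6 higher and 2 lower of 12, or 5 and 1 with the trends removed. MSC+RAW-TW against MSC had 2 higher (Cemip and Hyal2) and none lower, and Hyal2 came to 0.62 with the trends removed, which leaves Cemip. OVX against sham had 3 higher (Has2, Hmmr and Rdx) and none lower, of which only Hmmr was called with the trends removed.

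**Figure D4:**
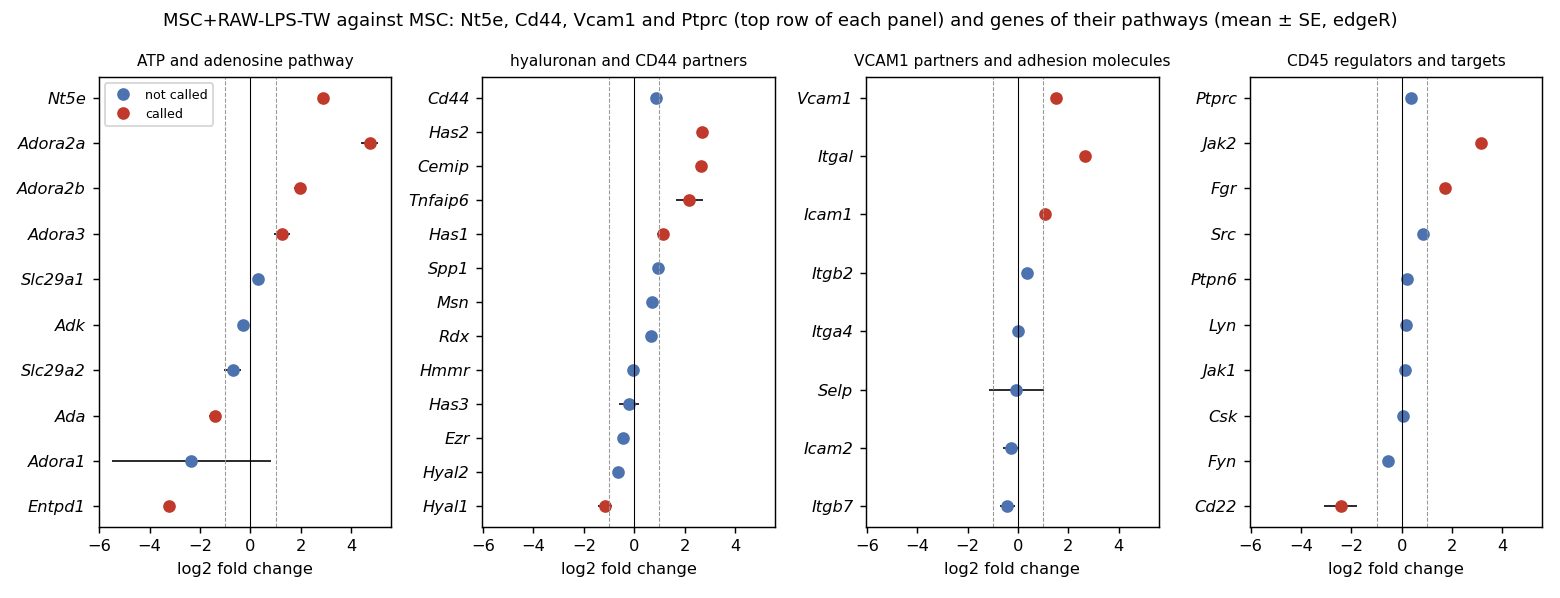
Log2 fold change ± SE (edgeR) in MSC+RAW-LPS-TW against MSC for Nt5e, Cd44, Vcam1 and Ptprc (top row of each panel) and the tested genes of the pathway around each, ordered by fold change, with red circles for called genes and dashed lines at a fold of 2. Adora2a (4.73) and Jak2 (3.14) lie farthest to the right and Entpd1 (-3.24) is the lowest called gene.

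Ly6a encodes Sca-1, a small anchored protein of mouse stem cells and of many activated cells. It was the gene whose level in MSC+RAW-TW stood furthest above that in MSC+RAW-LPS-TW apart from Thy1. Levels were 199.8 and 229 CPM in MSC, 526 and 500.2 CPM in MSC+RAW-TW, and 116 and 185 CPM in MSC+RAW-LPS-TW, with no overlap. It rose in MSC+RAW-TW over MSC (1.29 ± 0.23, adjusted p = 0.00093) and was lower with LPS-stimulated than with untreated RAW cells (-1.81 ± 0.23, adjusted p = 1.80e-05), and both calls were kept with the trends removed (1.48 and -1.94). The difference between MSC+RAW-LPS-TW and MSC did not pass (-0.51 ± 0.19, adjusted p = 0.0734). In BMMs, Ly6a fell from 366, 346 and 349 CPM in sham to 158, 180.3 and 162 CPM in OVX (-1.11 ± 0.17, adjusted p = 0.00868), with no overlap. Without OVX replicate 2 the fold stayed at -1.16 but the adjusted p was 0.0564. Ly6a is one of a family of similar genes, and reads shared with its relatives were not examined.

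Eng was higher in both co-cultures than in MSC alone. It gave 64.0 and 61.6 CPM in MSC, 127 and 131 CPM in MSC+RAW-TW, and 91.7 and 106 CPM in MSC+RAW-LPS-TW, with no overlap between the groups. It rose in MSC+RAW-TW over MSC (1.06 ± 0.18, adjusted p = 0.000726), but came to 0.67 (adjusted p = 0.0115), below the fold limit, with the trends removed. In MSC+RAW-LPS-TW it passed the adjusted p over MSC below the fold limit (0.65 ± 0.15, adjusted p = 0.00541), and the trend-corrected value was 0.67. The co-cultures did not differ past the threshold (-0.41 ± 0.18, adjusted p = 0.0807). In BMMs, 21.8, 30.0 and 27.9 CPM in sham stood beside 18.4, 21.0 and 18.6 CPM in OVX, without overlap and without a call (-0.40 ± 0.20, adjusted p = 0.221).

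Of 14 ligands, receptors and SMAD proteins that signal with endoglin, none rose and 2 fell in MSC+RAW-LPS-TW against MSC. They were the ligands Bmp4, from 6.48 to 0.535 CPM (-3.59 ± 0.38, adjusted p = 4.22e-06), and Tgfb3, from 49.5 to 11.99 CPM (-2.05 ± 0.16, adjusted p = 1.49e-07). Below the fold limit, 5 more passed the adjusted p, of which Smad1 (0.94), Acvrl1 (0.80) and Bmpr2 (0.65) were higher and Tgfbr2 (-0.70), the ligand-binding receptor, and Tgfb2 (-0.60) lower. The list median was 0.18 against -0.01 for all genes. None of the 14 was called in MSC+RAW-TW against MSC, and 2 rose (Bmpr2 and Smad1) and 2 fell (Bmp4 and Tgfb3) between the co-cultures, where Bmpr2 came to 0.04 with the trends removed. OVX BMMs had 3 higher (Tgfbr1, Bmp4 and Tgfb3) and 2 lower (Tgfb1 and Acvrl1), the latter pair not called with the trends removed.

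Thy1 was detected in the MSC experiment at counts of 75 in each MSC+RAW-TW library, 22 and 10 in MSC, and 8 and 17 in MSC+RAW-LPS-TW. MSC+RAW-TW lay above both other groups (1.83 and 2.16 CPM against at most 0.542 CPM). The log2 fold change was 2.42 ± 0.77 over MSC (adjusted p = 0.028), and between the co-cultures it was -2.37 ± 0.78 (adjusted p = 0.0236). With the trends removed the values were 1.999 and -1.92, and by DESeq2 2.44 and -2.39, but neither call held (adjusted p = 0.0758 and 0.0645 with the trends removed, 0.0807 and 0.0743 by DESeq2). The first call was also lost without MSC replicate 1 (2.77, adjusted p = 0.0704), MSC replicate 2 (2.16, adjusted p = 0.152) or the second MSC+RAW-TW library (2.28, adjusted p = 0.0508). The second was lost without the first MSC+RAW-LPS-TW library (-1.89, adjusted p = 0.056). In BMMs, OVX and sham differed by -0.22 ± 0.18 (adjusted p = 0.442).

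Of the receptors for platelet-derived growth factor, a growth factor for mesenchymal cells, Pdgfra was called in the MSC experiment and Pdgfrb was not, and the difference between them was not tested. Pdgfra gave 73.8 and 80.8 CPM in MSC, 35.7 and 36.8 CPM in MSC+RAW-TW, and 89.1 and 74.99 CPM in MSC+RAW-LPS-TW. MSC+RAW-TW lay below the others with no overlap, by -1.07 ± 0.20 against MSC (adjusted p = 0.00136), and MSC+RAW-LPS-TW lay 1.15 ± 0.20 above it (adjusted p = 0.000326). With the trends removed these were -0.96, just short of the fold limit, and 1.03. Pdgfra shared 456 bp of exon with an antisense gene that held no count in any library. Pdgfrb gave 161 and 157 CPM in MSC, 147 and 139 CPM in MSC+RAW-TW, and 162 and 167 CPM in MSC+RAW-LPS-TW, and no contrast of the MSC experiment called it (log2 fold changes of -0.12 ± 0.18 to 0.17 ± 0.18). Once the trends were removed, Pdgfrb came to -0.40 (adjusted p = 0.101) in MSC+RAW-TW against MSC and 0.47 (adjusted p = 0.0378) between the co-cultures, in the directions of Pdgfra and below the fold limit. In BMMs, Pdgfra was 88.8, 82.9 and 84.0 CPM in sham and 64.9, 51.7 and 54.9 CPM in OVX, without overlap (-0.60 ± 0.18, adjusted p = 0.0633), and Pdgfrb overlapped (0.02 ± 0.18, adjusted p = 0.951).

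Of the 4 genes for their ligands, Pdgfa rose in MSC+RAW-LPS-TW from 17.5 CPM in MSC to 44.0 CPM (1.33 ± 0.20, adjusted p = 0.00013) and also rose against MSC+RAW-TW (1.37). Pdgfd rose in OVX BMMs from 4.21 to 17.3 CPM (2.02 ± 0.33, adjusted p = 0.00988). The remaining ligands, Pdgfb and Pdgfc, were not called in any of the 4 contrasts.

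Lepr encodes the leptin receptor, the marker of the perivascular stromal cells that form the niche of blood stem cells. It was at the edge of detection in all 12 libraries, with counts from 7 to 87. Levels were 1.78 and 2.02 CPM in MSC, 1.10 and 1.29 CPM in MSC+RAW-TW, and 2.19 and 0.765 CPM in MSC+RAW-LPS-TW, so that the last group spanned the others. No contrast called it. In BMMs it gave 0.859, 0.443 and 0.824 CPM in sham and 1.40, 1.57 and 1.93 CPM in OVX, without overlap (1.09 ± 0.39, adjusted p = 0.100).

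Of 12 niche factors made by leptin receptor-positive cells, 1 rose and 3 fell in MSC+RAW-LPS-TW against MSC. Grem1, an antagonist of bone morphogenetic proteins, rose from 71.6 to 332 CPM (2.21 ± 0.17, adjusted p = 1.09e-07). Kitl, the ligand of the stem cell receptor Kit, fell from 17.6 to 5.36 CPM (-1.72 ± 0.26, adjusted p = 0.000143), and Lpl, a lipase of fat-laden cells, from 839 to 145 CPM (-2.53 ± 0.16, adjusted p = 9.64e-09). Ibsp, a bone matrix protein, also fell, at low levels. Cxcl12, the chemokine that retains stem cells, passed the adjusted p at -0.81, below the fold limit. In MSC+RAW-TW against MSC, Grem1 and Il7 were lower, neither of them called with the trends removed, where Angpt1 was called higher instead (1.20). Between the co-cultures 2 rose and 3 fell, or 2 and 5 with the trends removed. In OVX BMMs, 4 of 11 rose (Kitl, Angpt1, Il7 and Ibsp) and none fell, with 2 calls left when the trends were removed.

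Ptprc gave 167 and 171 CPM in MSC, 93.8 and 89.5 CPM in MSC+RAW-TW, and 227 and 209.9 CPM in MSC+RAW-LPS-TW, with no overlap. MSC+RAW-LPS-TW was 1.22 ± 0.19 above MSC+RAW-TW (adjusted p = 0.000122), and MSC+RAW-TW was lower than MSC by -0.85 ± 0.19 (adjusted p = 0.00343), below the fold limit. With the trends removed, the former was 0.20 (adjusted p = 0.372) and the latter 0.13 (adjusted p = 0.603). The difference that does not involve MSC+RAW-TW, between MSC+RAW-LPS-TW and MSC, was 0.37 ± 0.15 (adjusted p = 0.0934) and 0.33 with the trends removed. In BMMs, 86.7, 71.4 and 73.2 CPM in sham stood beside 159, 109 and 105 CPM in OVX, without overlap. The log2 difference of 0.63 ± 0.23 (adjusted p = 0.112) turned to -0.30 with the trends removed.

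Of 9 tested kinases, substrates and partners of CD45, 2 rose and 1 fell in MSC+RAW-LPS-TW against MSC. Jak2, a cytokine receptor kinase that CD45 dephosphorylates, rose from 45.5 to 403 CPM (3.14 ± 0.16, adjusted p = 1.14e-09). The SRC-family kinase Fgr (1.72) rose, and Cd22 fell at low levels. Lyn, another SRC-family kinase, was lower in MSC+RAW-TW than in MSC (-1.32 ± 0.22, adjusted p = 0.00066) and was the only one of the 9 called there. Between the co-cultures 3 rose (Lyn, Fgr and Jak2) and Cd22 fell, and with the trends removed Src was called higher as well (1.02). In OVX BMMs, Fgr fell by 1.21 and the phosphatase Ptpn6 by 1.12 on the log2 scale, and none rose. Neither was called with the trends removed. In the same contrast 5 macrophage markers fell and 1 rose, or 3 and 1 with the trends removed, and the part of that shift in these values was not tested.

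Among 16 other surface antigens used for MSCs, Itgb1 (CD29), the integrin chain in the study's own panel, was high throughout, at 872 CPM in MSC, 961 CPM in MSC+RAW-TW and 908 CPM in MSC+RAW-LPS-TW, and was called in none of the 4 contrasts. In MSC+RAW-LPS-TW against MSC, 4 of 15 tested rose and 1 fell. Itga5, the fibronectin receptor chain, rose from 143 to 560 CPM (1.97 ± 0.15, adjusted p = 1.24e-07). Cd200 (2.23), Ncam1 (1.88) and the cadherin Cdh11 (1.48) rose as well, and Fap fell by 1.11 on the log2 scale. None was called in MSC+RAW-TW against MSC, and 5 rose and 2 fell between the co-cultures, or 5 and 1 with the trends removed. In OVX BMMs, Cspg4 alone of 16 was called (-1.31), though not with the trends removed.

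The calls among these genes in MSC+RAW-LPS-TW stood beside shifts in the marker lists. Of 20 macrophage markers, 2 rose and 9 fell against MSC, with a median of -0.78, and Mrc1 fell from a mean of 588 CPM to 3.99 and 4.02 CPM while Adgre1 (F4/80) rose from 548 to 1470 CPM. Of 16 stromal markers, 3 rose (Dcn, Lum and Postn) and 3 fell (Col6a1, Col6a2 and Tagln), with a median of 0.54. Dcn rose from 7.58 to 194 CPM, and Col6a1 fell by 1.42 on the log2 scale. With the trends removed, 2 stromal markers rose and 3 fell. Between the co-cultures, 3 macrophage markers rose and 10 fell (median -1.12), or 4 and 10 with the trends removed. In the same contrast 6 stromal markers rose and 3 fell (median 0.72), or 5 and 2 with the trends removed. Of 10 neutrophil genes 4 were tested and 3 rose against MSC, S100a8 from 13.4 to 429 CPM (5.004 ± 0.24, adjusted p = 5.92e-10), Camp by 5.81 ± 0.29 and Mmp8 by 2.14 ± 0.20, and S100a9 was at most 0.0600 CPM in that experiment. The same 3 genes rose between the co-cultures, and S100a8 alone was called in MSC+RAW-TW against MSC (1.27). In MSC+RAW-TW against MSC, 5 macrophage markers rose and 2 fell, or 2 and 0 with the trends removed. The part of these shifts in the values of the 10 genes was not tested.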

How the data were processed

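Counts per gene were deposited for 6 BMM and 6 MSC libraries. According to the methods and the submitters' processing notes, the authors prepared poly(A) RNA with a directional kit, trimmed reads with Trim Galore 0.6.7, mapped them to GRCm38 with HISAT2 2.1.0 and used featureCounts 2.0.1 for gene counts. The strand setting is not given in the sources used here. The deposited counts are raw and unfiltered, with no column of another series.

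Genes were named from GENCODE (55141 of 55487). Counts of near-identical libraries were summed. Tests used edgeR 4.0.16 in R 4.3.3 (TMM, filterByExpr defaults, glmQLFTest, 1 fit per experiment, group as the only term), and the SE is the log2 fold change over the root of its F statistic. Trends were lowess curves of span 0.3. DESeq2 1.42.0 served as an alternative. On simulated counts, 198 of 200 changed genes were recovered for OVX against sham, with 14 false calls among 16301 genes. The simulation used the fit's own spread, no GC trend, and changes larger than the fold limit in well-detected genes. It therefore gives no error rate for the calls reported here.

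The 10 genes and all lists were chosen with earlier results of these data known. Named list genes are the 3 most abundant of each list and those called in a contrast that is described. Col1a1, Src and Tgfb2 were chosen after their values were seen. A list gene is not reported here and was left out of the counts.

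In the BMM experiment, deviations of same-numbered libraries correlated at 0.409, -0.026 and 0.353. These values cannot exclude pairing, because sham replicates 2 and 3 are near-identical. The main fit did not take the numbers as pairs, and a fit with them as a block is given below.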

Additional observations from a re-analysis of the deposited data

How the results depend on the processing

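With no fold limit, the contrasts OVX against sham, MSC+RAW-LPS-TW against MSC and MSC+RAW-TW against MSC called 2193, 4286 and 5862 genes, and MSC+RAW-LPS-TW against MSC called 4 of the 10 genes. With GC and length trends removed, OVX against sham called 576 genes in place of 1419, and the split turned from 903 higher and 516 lower to 227 higher and 349 lower. MSC+RAW-TW against MSC called 2162 genes in place of 3360 and 1 of the 10 in place of 4, and the co-culture contrast called 4 of the 10 in place of 7. Leaving out each library in turn gave 309 to 2390 genes for OVX against sham (309 without OVX replicate 2, 678 without OVX replicate 1, 2390 without sham replicate 1) and 0 to 2 of the 10 genes (0 without OVX replicate 2, 1 without OVX replicate 1). The cause was not tested.

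In OVX against sham, removing the trends reversed Thy1 (0.14), Cd44 (-0.16), Vcam1 (-0.36) and Ptprc (-0.30). Cd44 also reversed without OVX replicate 1 (leave-outs from -0.019 to 0.24), and Pdgfrb without OVX replicate 2 (-0.00544) or 3 (leave-outs from -0.036 to 0.12). In MSC+RAW-LPS-TW against MSC, Thy1 reversed with a block on the suffix of the column headings (-0.000695), without MSC replicate 2 (-0.20) and without the second MSC+RAW-LPS-TW library (leave-outs from -0.64 to 0.49). Lepr did so without that library (leave-outs from -1.34 to 0.21) and Pdgfra without the first (from -0.073 to 0.21). In MSC+RAW-TW against MSC, Nt5e (0.38), Vcam1 (0.21) and Ptprc (0.13) reversed with the trends removed, and Nt5e without MSC replicate 1 (leave-outs from -0.13 to 0.021). Between the co-cultures, Eng (0.0016) and Lepr (-0.37) reversed with the trends removed, and Lepr without the first MSC+RAW-LPS-TW library (leave-outs from -0.66 to 0.86). None of these reversed values was a call in the main fit. Of the fold changes of the 10 genes under all alternatives, 636 kept their direction and their side of the threshold, 15 lost the threshold, 7 passed it and 19 reversed.

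A replicate block in the BMM fit with all libraries apart called 2117 genes, against 1818 without it. Both fits called 3 of the 10 genes, with Lepr added (1.19, adjusted p = 0.0429 with the block and 1.17, adjusted p = 0.0496 without it). Not every OVX library correlated best with the sham library of its number. The number series of the column headings as a block, chosen after seeing the data like the suffix above and like a fit without ribosomal RNA and mitochondrial genes, called 1693 genes. In the MSC experiment no block on the labels' replicate numbers could be fitted, because the column headings of the co-cultures repeat 1 number or carry one that the labels lack, so that no heading could be tied to a replicate. The suffix block there called 2383, 4489 and 6629 genes and 2, 4 and 7 of the 10 genes, in the order MSC+RAW-LPS-TW over MSC, MSC+RAW-TW over MSC and between the co-cultures.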

Other observations

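The genes whose log2 CPM followed Pdgfra, Vcam1 and Ptprc most closely over the 10 samples of both experiments, among 10547 genes that averaged 5 CPM or more, are given as a description. For Pdgfra they were Lyn, Irgm1, Alkbh5, Tle4 and Pcbp2 (Pearson's r from 0.974 to 0.915). For Vcam1 they were Gja1, Ak4, Map2k1, Cyp1b1 and Bnip3 (0.985 to 0.963), and for Ptprc Ints8, Sestd1, Cog3, Tbc1d23 and Mgea5 (0.991 to 0.978). The points share libraries, depth and the GC trends of the groups. Lyn, a kinase of blood cells, had means of 229 CPM in sham, 133 CPM in OVX, 220.4 CPM in MSC, 86.8 CPM in MSC+RAW-TW and 248 CPM in MSC+RAW-LPS-TW, and Gja1, the gap junction protein connexin 43, had 246, 249, 119, 74.1 and 364 CPM.

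Genes of the sex chromosomes differed between the experiments. The labels give no sex, and the methods name female mice. Xist, the RNA of the inactive X chromosome, ran from 95.7 to 221 CPM in the macrophage libraries and was at most 0.660 CPM in the MSC experiment. By edgeR it was called higher in OVX than in sham (1.00, adjusted p = 0.0134), but not with the trends removed (0.14). Ddx3y, a gene of the Y chromosome, was at 0 in all macrophage libraries and ran from 34.3 to 66.2 CPM in the MSC experiment, MSC alone included (58.3 and 66.2 CPM).

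Fat cell genes were also present in the cells labelled MSC. Of 6 on the list, 5 reached 1 CPM in MSC, and 2 in sham and in OVX. The list summed to 130 and 141 CPM in MSC, 48.3 to 82.0 CPM in sham and 86.4 to 91.7 CPM in OVX. Adipoq, the hormone of fat cells, had 14.3 CPM in MSC and 0.438 CPM in sham BMMs. Of 5 adipocyte genes tested, 4 fell in MSC+RAW-LPS-TW against MSC, among them Fabp4 from 95.8 to 20.3 CPM (log2 fold change of -2.24, adjusted p = 6.47e-08 by edgeR). Adipoq was not called there (-0.55, adjusted p = 0.0746).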
